A study of Mus musculus with 8 samples.

Results

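The 38 genes described here encode glycolytic enzymes and their isoforms, the carriers of glucose and lactate, the subunits and regulators of the hypoxia-inducible factors (HIFs), and well-known HIF targets. They were chosen by name, with earlier results of these data known, and all 38 had a row among the 37583 gene rows of the count files. Of these, 37 had enough counts to be tested, among 15228 genes tested in all. Epo, the gene of the red-cell hormone erythropoietin, was the member left out, with 0, 4, 2 and 2 counts in the libraries labelled knockout and 4, 0, 3 and 5 in those labelled wildtype.

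The libraries came from whole kidneys of mice. The 4 labelled knockout carried a floxed Tfap2b on both alleles (TFAP2Bfl/fl) together with b-actinCreERT2, a Cre recombinase that is activated by tamoxifen and driven by the broadly active beta-actin promoter. The 4 labelled wildtype came from control littermates. Age, sex, the tamoxifen schedule and the time after it are not given in the labels. Its product, AP-2 beta, is a DNA-binding regulator of distal tubule cells. Reads over the whole Tfap2b gene were more frequent where the label says knockout (238, 266, 237 and 240 CPM against 94.3, 105, 111 and 103; log2 fold change 1.25, edgeR adjusted p = 4.18e-06), which does not check the deletion, and directions here follow the labels. CPM are gene counts scaled to library size with TMM factors. The labels do not say whether each library is a separate animal, so the p-values measure the spread between these libraries.

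Glycolysis splits glucose into pyruvate, which is either oxidised in mitochondria or turned into lactate. In the kidney the proximal tubule makes glucose and burns fatty acids and lactate, while more distal segments use glucose. The HIF-alpha proteins Hif1a and Epas1 are tagged for breakdown by the prolyl hydroxylases (Egln genes) and Vhl while oxygen is present, and in its absence pair with Arnt and bind the letters ACGTG or GCGTG in the DNA of their targets, many of them glycolytic.

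The stretches before the start site of 4 members are shown because these genes carry the results below: Eno2 and Aldoc differed between the groups, Slc16a1 varied with the clock genes, and Ldha, a classic HIF target with many of these letters, did not pass the test. They come from RefSeq (GRCm38.p6), and capitals mark ACGTG or GCGTG read on either strand. The Eno2 stretch lies at chr6:124769674-124769923 on the minus strand, and the others are on the plus strand, at chr11:78322823-78323072 for Aldoc, chr3:104638414-104638663 for Slc16a1 and chr7:46845554-46845803 for Ldha.
Eno2 promoter, 5′ to 3′: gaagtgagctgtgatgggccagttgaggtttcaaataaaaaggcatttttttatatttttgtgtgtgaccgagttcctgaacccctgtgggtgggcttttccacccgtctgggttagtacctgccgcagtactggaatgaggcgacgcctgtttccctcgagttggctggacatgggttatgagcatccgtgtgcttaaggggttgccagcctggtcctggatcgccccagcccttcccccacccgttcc
Aldoc promoter, 5′ to 3′: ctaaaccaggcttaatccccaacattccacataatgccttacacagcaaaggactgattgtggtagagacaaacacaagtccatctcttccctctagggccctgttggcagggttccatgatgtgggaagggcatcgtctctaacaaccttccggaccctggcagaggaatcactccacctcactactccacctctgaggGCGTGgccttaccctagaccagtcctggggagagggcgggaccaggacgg
Slc16a1 promoter, 5′ to 3′: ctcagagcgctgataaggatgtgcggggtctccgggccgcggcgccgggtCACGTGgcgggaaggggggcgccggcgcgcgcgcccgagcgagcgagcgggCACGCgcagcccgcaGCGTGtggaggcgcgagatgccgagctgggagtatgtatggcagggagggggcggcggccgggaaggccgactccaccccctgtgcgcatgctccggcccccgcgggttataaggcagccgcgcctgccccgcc
Ldha promoter, 5′ to 3′: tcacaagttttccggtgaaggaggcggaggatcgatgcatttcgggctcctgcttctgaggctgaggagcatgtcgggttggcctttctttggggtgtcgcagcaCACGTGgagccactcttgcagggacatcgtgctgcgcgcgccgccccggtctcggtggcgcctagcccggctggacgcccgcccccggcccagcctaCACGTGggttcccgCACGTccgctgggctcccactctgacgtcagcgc
Within these 250 bases Eno2 holds no match, Aldoc 1, Slc16a1 4 and Ldha 5, where a palindromic CACGTG counts on both strands. CACGTG is also the E-box letters that the clock activators bind, and it occurs once for Slc16a1 and at 2 places for Ldha. A window of 300 bases (250 before to 50 after the start) was found in RefSeq for 34 members, with 47 windows. For Aldoc and Ldha, which each have a further start site and window, the stretch shown is the first by position. The further windows hold 1 match for Aldoc and 2 for Ldha. ACGTG or GCGTG was in 38 of the 47 windows (80.9%), against 59.1% of the 14436 windows of tested genes and 43.8% of all 32851. The AP-2 type letters GCCNNNGGC were in 13 windows (27.7%), against 24.1% of the windows of tested genes, and CACGTG in 6 (12.8%) against 9.41%. No window was found for Slc2a3, Slc16a7, Epas1 and Ndrg1. A match is a description of letters only.

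Only 3 of the 37 tested members changed at an edgeR adjusted p under 0.05 (quasi-likelihood test, Benjamini-Hochberg over all genes tested). The enolase isoform Eno2 rose, and the lactate carrier Slc16a7 and the aldolase isoform Aldoc fell. That is 8.11% of the members, against 11.9% of all tested genes, so that the members were not called more often than the background. By direction the background was 6.23% rising and 5.7% falling. At an unadjusted p under 0.05 there were 10 members (27%) against 27.1% of all genes. The groups did not overlap in 7 members (18.9%) against 18.5%. The members' median log2 fold change was -0.04, with 17 higher and 20 lower, beside 0.0004 over all genes. For 24 members (64.9%; 62.1% of all genes) the 95% interval lay within a 1.5-fold change in either direction.

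The lactate and pyruvate genes held the lowest p of the list. Slc16a7 (MCT2; ENSMUSG00000020102), a high-affinity carrier of lactate and pyruvate, stood at 105, 95.2, 95.7 and 91.5 CPM across the libraries labelled knockout and 161, 187, 188 and 211 CPM in those labelled wildtype. All 4 libraries labelled knockout were below all 4 labelled wildtype. The means were 96.9 ± 5.80 and 186 ± 20.4 CPM (SD, n = 4 each), a log2 fold change of -0.95 ± 0.09 (SE; edgeR adjusted p = 8.94e-05). This call held in all 18 other settings and left-out libraries tried.

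The lactate dehydrogenases, which interconvert pyruvate and lactate, were close to equal between the groups. Ldha was at 346, 400, 410 and 384 CPM across the libraries labelled knockout and 410, 358, 397 and 399 CPM in those labelled wildtype. The Ldha log2 fold change was -0.02 with a 95% interval of -0.20 to 0.15, which bounds any change at a modest size. Ldhb, the isoform with the highest level per length among the members (628 CPM per kb of exon in the libraries labelled wildtype), was at 1025, 1053, 1013 and 1011 CPM against 1055, 970, 988 and 929. The Ldhb log2 fold change was 0.06 with an interval of -0.11 to 0.22. The log2 ratio of Ldha to Ldhb was -1.42 ± 0.11 against -1.33 ± 0.09 (SD, n = 4; exact permutation p = 0.343). Pdk1, the kinase that switches off pyruvate dehydrogenase under HIF control, had a log2 fold change of -0.18 ± 0.08 (edgeR adjusted p = 0.162), and Slc16a3 (MCT4), the low-affinity lactate exporter, was near its detection limit at 0.75 to 2.02 CPM in every library.

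**Figure D1:**
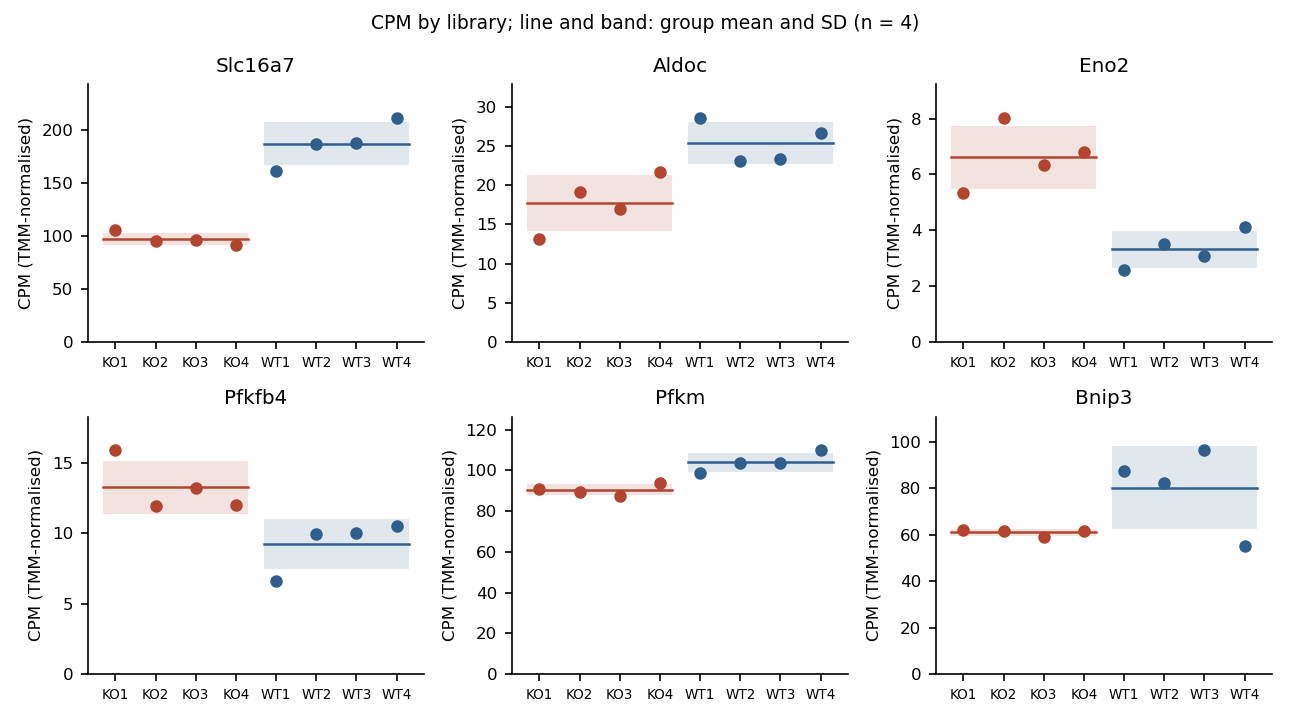
CPM of 6 members in each library, red for libraries labelled knockout (KO) and blue for those labelled wildtype (WT), with the group mean as a line and the SD as a band (n = 4); axes start at 0. Slc16a7 and Aldoc lay lower and Eno2 higher in all 4 libraries labelled knockout, while Pfkfb4, Pfkm and Bnip3 did not pass the test.

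In lower glycolysis Eno2 (ENSMUSG00000004267), the neuronal-type enolase, rose. It was at 5.32, 8.02, 6.32 and 6.79 CPM across the libraries labelled knockout and 2.56, 3.51, 3.09 and 4.13 CPM in those labelled wildtype, so that the groups did not overlap. Its log2 fold change was 0.99 ± 0.19 (SE; edgeR adjusted p = 0.00702; 0.88 with adjusted p = 0.138 once the clock score below was a term, and 0.000129 to 0.138 over the 18 alternatives). Eno2 is a minor form: the main kidney enolase among the members, Eno1, stood at 159 to 216 CPM across the libraries labelled knockout and 193 to 213 CPM in those labelled wildtype, and the Eno1 log2 fold change was -0.05 with adjusted p = 0.755. Per length Eno1 was at 37.0 and Eno2 at 0.71 CPM per kb of exon in the libraries labelled wildtype. The log2 ratio of Eno1 to Eno2 was 4.86 ± 0.19 against 5.91 ± 0.31 (SD, n = 4; exact permutation p = 0.0286, the lowest value possible here, and 0.137 adjusted over the 12 isoform ratios).

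Pkm, the pyruvate kinase at the end of the pathway, had a log2 fold change of 0.18 ± 0.10 (edgeR adjusted p = 0.273). Gapdh, Pgk1 and Pgam1, which act in the middle, had log2 fold changes of -0.23, -0.16 and -0.16, none past the threshold. Pgk1 did not overlap between the groups (22.7 to 27.7 against 28.0 to 30.8 CPM), yet its adjusted p was 0.244.

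Gapdh illustrates a limit of these counts. It is usually among the most abundant messages of any tissue, but stood at 3.97 to 4.74 CPM across the libraries labelled knockout and 4.37 to 5.64 CPM in those labelled wildtype. Of the 50-base stretches of its main mRNA, 82.5% also occur in other genes of the GENCODE M21 annotation, including 213 pseudogenes, and 78 of these have a row of their own. Those rows together held 495 to 694 counts per library, against 55 to 93 for Gapdh itself. Gapdh and these rows together came to 34.6 to 42.6 CPM across the libraries labelled knockout and 42.0 to 44.8 CPM in those labelled wildtype (exact permutation p = 0.114).

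Shared sequence touched other members too. The share was 72.2% for Eno1, 68% for Pgk1, 62.4% for Bnip3, 41.5% for Pgam1 and 34.4% for Pkm, so that their levels are uncertain. Lower shares were found for Ldhb (27%), Gpi1 (25.3%), Pfkp and Ldha (17.1% each), Ndrg1 (14.6%) and Aldoa (13.9%), among others. Their levels carry the same limit. The share was 0.265% for Slc16a7, 0.255% for Eno2 and 0% for Aldoc, the 3 that passed the test. Alignments that were not unique made up 15.4% to 18% of all records. Their part in the low Gapdh level was not tested.

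**Figure D2:**
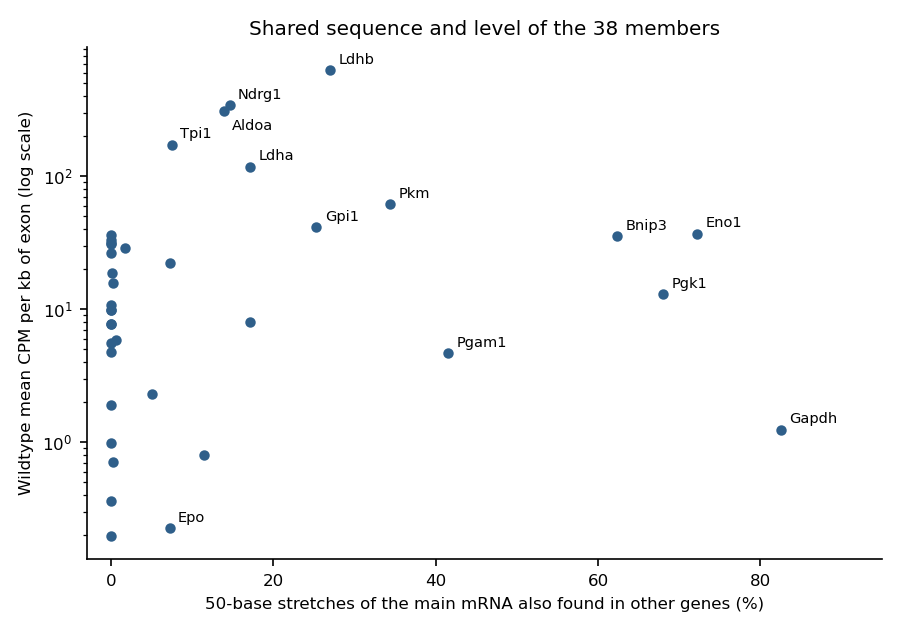
Mean CPM per kb of exon over the 4 libraries labelled wildtype (log scale) against the percentage of 50-base stretches of each member's main mRNA that also occur in other genes, 1 point per member. Gapdh, at 82.5% shared, lies at 1.25 CPM per kb, whereas Ldhb, Ndrg1, Aldoa and Tpi1 lie above 100.

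In upper glycolysis Aldoc (ENSMUSG00000017390), the brain-type aldolase, fell. It was at 13.2, 19.2, 16.9 and 21.7 CPM across the libraries labelled knockout and 28.6, 23.2, 23.3 and 26.7 CPM in those labelled wildtype. The groups did not overlap, although the highest library labelled knockout came close to the lowest labelled wildtype. The log2 fold change was -0.52 ± 0.14 (SE; edgeR adjusted p = 0.0359). The call was kept in 9 of 18 alternatives, over which the adjusted p ran from 0.00869 to 0.0888; it was lost on leaving out knockout library 2 or 3 or any of the 4 libraries labelled wildtype, with library totals as the only scaling, without knockout libraries 1 and 4 together, and with the replicate number as a block.

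Per length, Aldoc was at 7.80 and Aldoa at 311 CPM per kb of exon in the libraries labelled wildtype. Aldoa, the muscle-type form, was at 867, 1100, 1009 and 1128 CPM against 883, 846, 925 and 968, with a log2 fold change of 0.18 ± 0.10 (adjusted p = 0.266 by edgeR). The log2 ratio of Aldoa to Aldoc was 5.87 ± 0.14 against 5.16 ± 0.15 (SD, n = 4; exact permutation p = 0.0286, and 0.137 adjusted over 12 ratios). Of the 12 ratios, these 2 (Aldoa to Aldoc and Eno1 to Eno2) were under 0.05 before adjustment and none after it.

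Phosphofructokinase commits sugar to glycolysis, and its isoforms moved little. Pfkm, the muscle form, was at 91.1, 89.6, 87.5 and 93.8 CPM across the libraries labelled knockout and 98.8, 104, 104 and 110 CPM in those labelled wildtype. The groups were narrow and did not overlap, but the log2 fold change was only -0.20 ± 0.06 and its edgeR adjusted p was 0.0524, just outside the threshold (0.0172 with DESeq2, and 0.0172 to 0.413 over the alternatives). Pfkl and Pfkp, the liver and platelet forms, had log2 fold changes of -0.21 and 0.04.

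Pfkfb4 makes and breaks fructose-2,6-bisphosphate, the activator of phosphofructokinase, and was at 15.9, 11.9, 13.2 and 12.0 CPM against 6.63, 9.94, 10.0 and 10.5. The groups did not overlap. Its log2 fold change of 0.51 ± 0.16 had an edgeR adjusted p of 0.0567, and it was called in 4 of the 18 alternatives. Its relative Pfkfb3 (-0.16) did not pass either (adjusted p = 0.482).

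The hexokinases trap glucose in the cell. Hk1, at 31.8 CPM per kb of exon against 0.98 for Hk2, was at 251 to 272 CPM across the libraries labelled knockout and 241 to 299 CPM in those labelled wildtype. Its log2 fold change was -0.04, with a 95% interval of -0.24 to 0.15. Hk2, the insulin- and HIF-responsive form, was at 6.66, 17.4, 3.58 and 23.4 CPM against 9.64, 4.31, 4.60 and 4.91. Its spread within groups was wider than that of 98.8% of genes, and its log2 fold change of 1.12 had a 95% interval of -0.31 to 2.55 (edgeR adjusted p = 0.290).

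Fat markers were also uneven across these libraries. The 7 brown and white fat markers summed to 461, 1328, 312 and 692 CPM across the libraries labelled knockout and 943, 235, 370 and 555 CPM in those labelled wildtype, none of the 7 passing the test between the groups. Within each group the 2 libraries labelled knockout with the most Hk2 (2 and 4) and the 1 labelled wildtype (1) also held the most fat marker CPM. Their part in the Hk2 values was not tested. Of the remaining enzymes, Gpi1 and Tpi1, the isomerases, had log2 fold changes of 0.04 and -0.08.

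**Figure D3:**
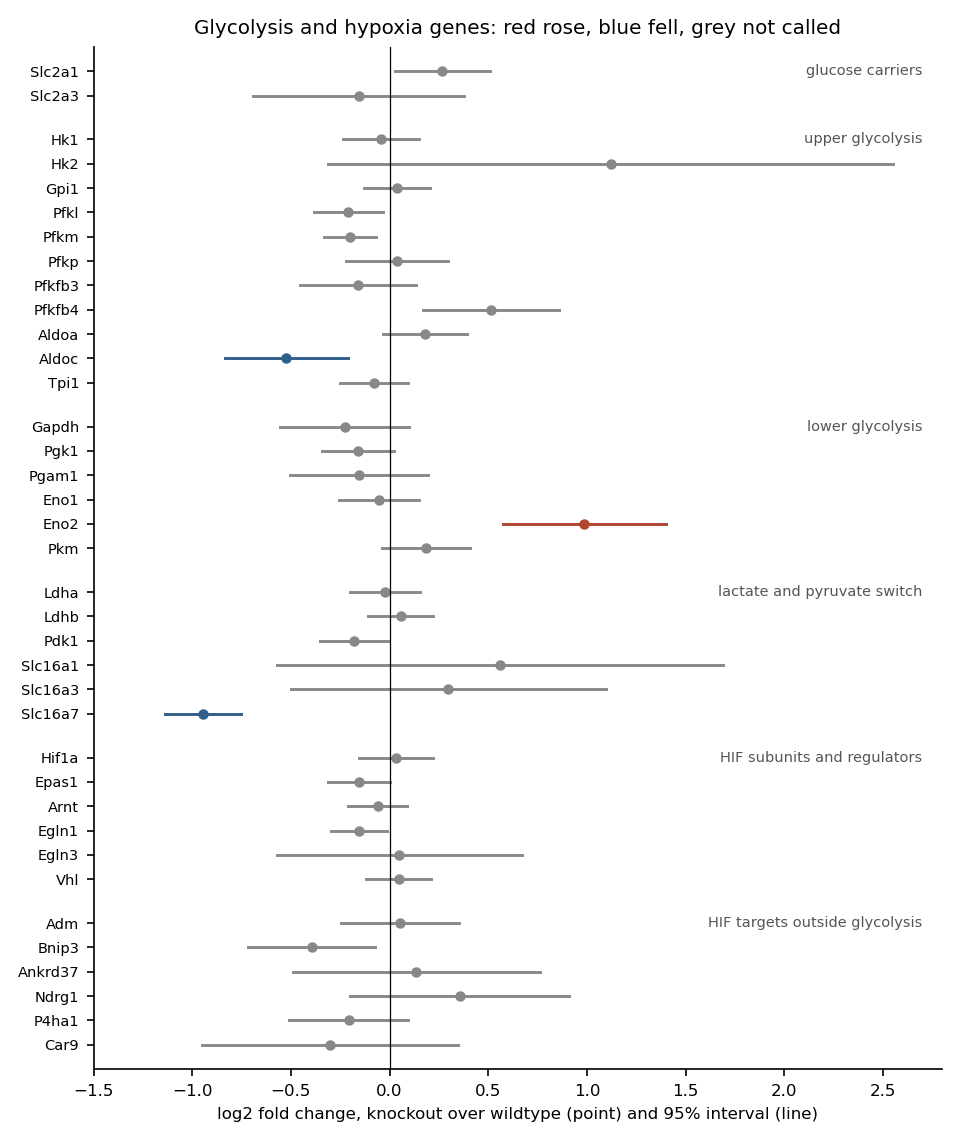
Log2 fold change of the 37 tested members (points) with its 95% interval (lines), grouped by role; red rose, blue fell and grey did not pass the test. Slc16a7, Aldoc and Eno2 stand out, and the widest intervals belong to Hk2, Slc16a1 and Slc16a3.

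The glucose carriers Slc2a1 (GLUT1) and Slc2a3 (GLUT3) did not pass the test. Slc2a1 was at 101, 142, 109 and 133 CPM against 112, 94.98, 95.3 and 101, a log2 fold change of 0.27 ± 0.11 (edgeR adjusted p = 0.140; 0.0455 without knockout library 1, and 0.0455 to 0.920 over the alternatives). Slc2a3 was at 1.57 to 2.96 CPM in all libraries.

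No HIF subunit or oxygen sensor passed the test. Hif1a was at 136, 139, 135 and 131 CPM against 112, 129, 145 and 144, a log2 fold change of 0.03 with a 95% interval of -0.15 to 0.22. Epas1 (HIF-2 alpha), the form that drives Epo in the kidney, was at 185, 178, 187 and 178 CPM against 190, 226, 194 and 199. The Epas1 groups did not overlap, but the difference was small (log2 fold change -0.15 ± 0.07, edgeR adjusted p = 0.196). These are transcript levels; HIF activity is set largely by protein breakdown, which was not measured.

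Arnt, the shared partner, Egln1, the main oxygen sensor, and Vhl had log2 fold changes of -0.06, -0.16 and 0.05. Egln3, a HIF-induced hydroxylase, was at 22.2, 9.72, 12.0 and 8.59 CPM against 10.9, 13.6, 14.0 and 12.4. Knockout library 1 stood above all others, and without it the Egln3 log2 fold change turned from 0.05 to -0.33 (edgeR adjusted p = 0.932 and 0.167; 0.167 to 0.981 over the alternatives).

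Among the HIF targets outside glycolysis none passed the test. Bnip3, which drives the removal of mitochondria, was at 62.1, 61.5, 58.9 and 61.5 CPM across the libraries labelled knockout and 87.5, 82.2, 96.5 and 55.0 CPM in those labelled wildtype. Of the latter, 3 lay higher and 1 lower than all libraries labelled knockout; the log2 fold change was -0.40 ± 0.14 (edgeR adjusted p = 0.106, 0.00240 without wildtype library 4, and 0.00240 to 0.459 over the alternatives). Adm, the vasodilator adrenomedullin, P4ha1, a collagen hydroxylase, Ankrd37 and Car9, a carbonic anhydrase, had log2 fold changes of 0.05, -0.21, 0.13 and -0.30. The median log2 fold change of the 6 tested was -0.08.

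Ndrg1, a stress-responsive gene and the member with the second-highest level per length (343 CPM per kb), varied widely. It was at 2007, 2876, 4096 and 2598 CPM across the libraries labelled knockout and 3100, 2242, 1592 and 2120 CPM in those labelled wildtype. The groups overlapped and the log2 fold change of 0.35 ± 0.25 did not pass the test (edgeR adjusted p = 0.397).

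Slc16a1 (MCT1), the broadly expressed lactate carrier, was similarly uneven: 32.8, 83.2, 82.6 and 59.8 CPM against 71.6, 54.6, 19.7 and 30.3. Its log2 fold change was 0.56 ± 0.47 (edgeR adjusted p = 0.506), and its spread within groups exceeded that of 97.4% of genes. The libraries also differed in the clock genes. A clock score, the mean log2 CPM of 9 clock output genes minus that of 4 activators, was 1.18, -0.99, -1.33 and -0.59 in the libraries labelled knockout and 0.42, 1.68, 3.23 and 2.15 in those labelled wildtype (difference -2.31, exact permutation p = 0.0571). Its genes did not all move together. The median log2 fold change was -1.257 for the output genes and 1.165 for the activators, but the output gene Per1 had 0.67 and the activator Clock 0.07. The libraries with the 3 lowest scores (knockout 3, 2 and 4) held Slc16a1 at 82.6, 83.2 and 59.8 CPM, and the one with the highest score (wildtype 3) held the lowest level, 19.7 CPM. The order was not strict. In between, by rising score, wildtype 1, knockout 1, wildtype 2 and wildtype 4 held 71.6, 32.8, 54.6 and 30.3 CPM.

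A fit that added the clock score was planned because earlier results of these data showed the score moving with the groups; the test of the term itself was added after the data were seen. In that fit 10 of 15228 genes (0.0657%) passed for the term. The 9 output genes and 4 activators that make up the score were themselves among the genes tested. Of the 37 members 1 passed, Slc16a1, which fell by 0.62 ± 0.07 on the log2 scale per unit of the score (edgeR adjusted p = 0.0129). Ndrg1 came nearest after it, with -0.34 ± 0.06 (adjusted p = 0.0630 by edgeR). CACGTG occurs in a start site window of 6 members, Slc16a1 among them. The others did not pass for the term. Ldha had -0.05 ± 0.04 (adjusted p = 0.626 by edgeR), and Pfkm, Pfkfb3, Hif1a and Bnip3 had 0.02, 0.05, 0.07 and 0.02. Any part of these letters in the clock term was not tested. In the same fit the group difference of Slc16a1 turned to -0.82 (edgeR adjusted p = 0.0416), against 0.56 without the term and 0.0416 to 0.732 over the alternatives. The score and the group overlap in part, and the time of day at which kidneys were taken is not in the labels.

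**Figure D4:**
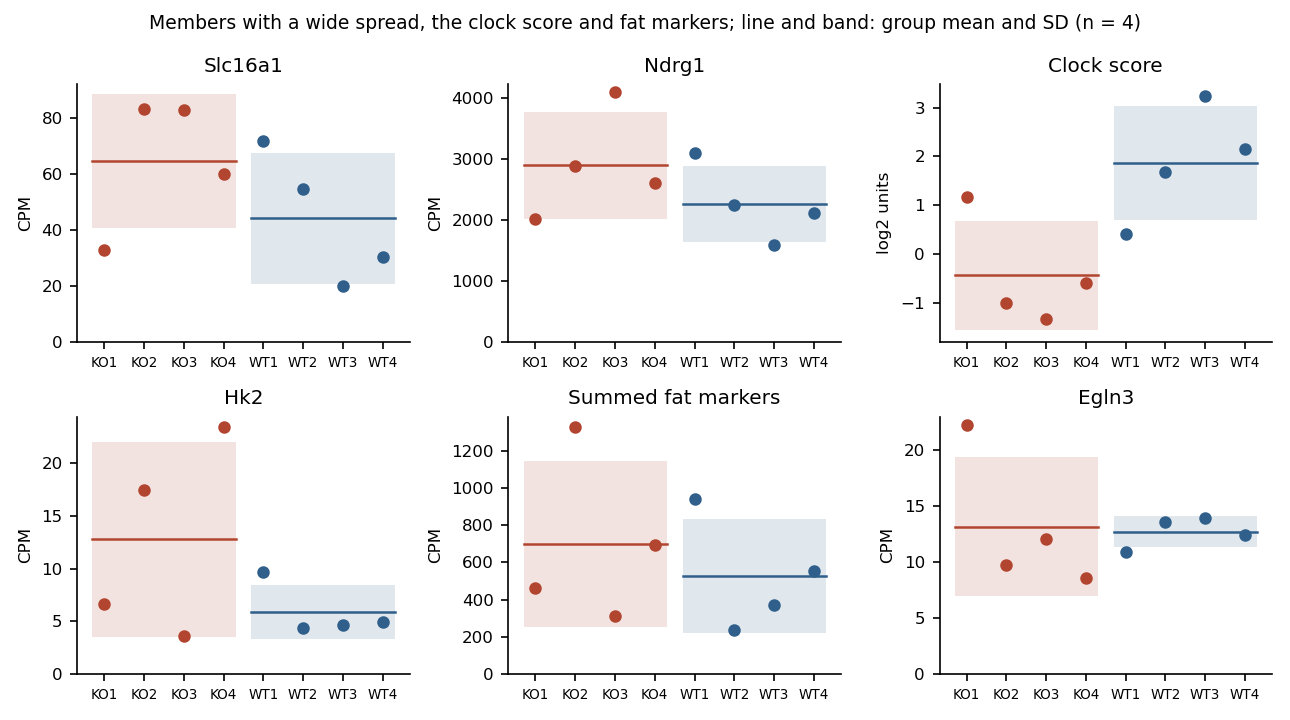
Slc16a1, Ndrg1, Hk2 and Egln3 (CPM), the clock score (log2 units) and the summed fat markers (CPM) in each library, red for libraries labelled knockout (KO) and blue for wildtype (WT), with group means as lines and SD as bands (n = 4). Slc16a1 is highest in knockout libraries 2 and 3, where the clock score is lowest, and Hk2 is highest in knockout libraries 4 and 2.

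Of 105 tested genes of the wider pathway, 11 rose and 20 fell, with a median log2 fold change of -0.11. That is 29.5% called, beside 11.9% of all tested genes; the difference between these shares was not tested. Once the clock score entered the fit, 4 rose and 4 fell (4.98% of all genes called), and of the 31, 6 kept their call: Slc2a9, Stc1, Edn1, Emb, Tfrc and Flt1. Without knockout library 2, 7 rose and 12 fell (6.98% of all genes), and without knockout library 4, 12 fell (7.61%). These lists were drawn up with earlier results of these data known.

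Among the genes for the fate of pyruvate and lactate, 5 of 15 fell and none rose (33.3% called, beside 11.9% of all tested genes). Pdha1, the catalytic subunit of pyruvate dehydrogenase, was at 462, 452, 466 and 451 CPM against 556, 563, 541 and 597 (log2 fold change -0.30 ± 0.07, edgeR adjusted p = 0.0164). Its phosphatase Pdp2 (-0.51) and kinase Pdk2 (-0.34) fell too, as did the carrier Slc16a4 (-0.43). Emb, the chaperone partner of Slc16a7 at the membrane, fell with it: 35.4, 37.8, 33.3 and 32.0 CPM against 60.2, 48.5, 51.4 and 60.4 (log2 fold change -0.67 ± 0.09, edgeR adjusted p = 0.00119).

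In 18 alternatives Pdk2, Slc16a4, Fbp1 and Slc2a5 kept their calls in 9, 6, 9 and 8. Gluconeogenesis and sugar carriers fell in part. Fbp1 and Pcx, enzymes of glucose synthesis, fell by 0.43 and 0.41 on the log2 scale, 2 of the 8 tested (25%, beside 11.9%). Of 9 other genes of the glucose carrier families (Slc2a and Slc5a) 4 fell and 1 rose (55.6% called, beside 11.9% of all tested genes). Slc5a2 (SGLT2), the main glucose reabsorber of the proximal tubule, was at 171, 77.5, 121 and 119 CPM against 252, 383, 267 and 302 (log2 fold change -1.30 ± 0.23, edgeR adjusted p = 0.00954). Slc5a1, Slc2a12 and Slc2a5 fell by 0.44, 0.72 and 0.41 on the log2 scale, while Slc2a9, a urate carrier, rose: 54.8, 53.2, 46.4 and 58.9 CPM against 28.9, 30.5, 31.3 and 29.3 (log2 fold change 0.83 ± 0.08, edgeR adjusted p = 0.000142). Among 15 further glycolysis genes Hkdc1, a hexokinase-like enzyme, rose by 0.68 and Galm, which interconverts the forms of galactose and glucose, fell by 0.52 on the log2 scale. Those 2 calls are 13.3% of the list, beside 11.9% of all tested genes. Hk3, the hexokinase of myeloid cells, was at 1.35 to 2.75 CPM against 0.30 to 1.22 (log2 fold change 1.32, edgeR adjusted p = 0.0564).

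None of 16 further HIF subunit and regulator genes passed the test (edgeR; 2 had an unadjusted p under 0.05), Hif3a among them (log2 fold change 0.63, adjusted p = 0.458). Of 42 other genes known to respond to hypoxia, 9 rose and 8 fell (40.5% called, beside 11.9% of all tested genes). Over all 42, called or not, 15 were higher and 27 lower, with a median log2 fold change of -0.12. Stc1, a secreted glycoprotein, was at 17.3, 20.5, 17.95 and 22.6 CPM against 5.35, 6.06, 4.02 and 4.43 (log2 fold change 1.99 ± 0.15, edgeR adjusted p = 2.31e-05). Edn1 (endothelin), Stc2, Cp (ceruloplasmin) and Lox (a collagen cross-linker) rose by 1.16, 0.84, 0.77 and 0.84 on the log2 scale. Vegfa, the HIF-driven vascular growth factor, was lower: 265, 275, 280 and 279 CPM against 354, 330, 362 and 361 (log2 fold change -0.36 ± 0.07, edgeR adjusted p = 0.00630). Tfrc, the transferrin receptor, and Rcor2 fell by 0.62 and 1.21 on the log2 scale.

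**Figure D5:**
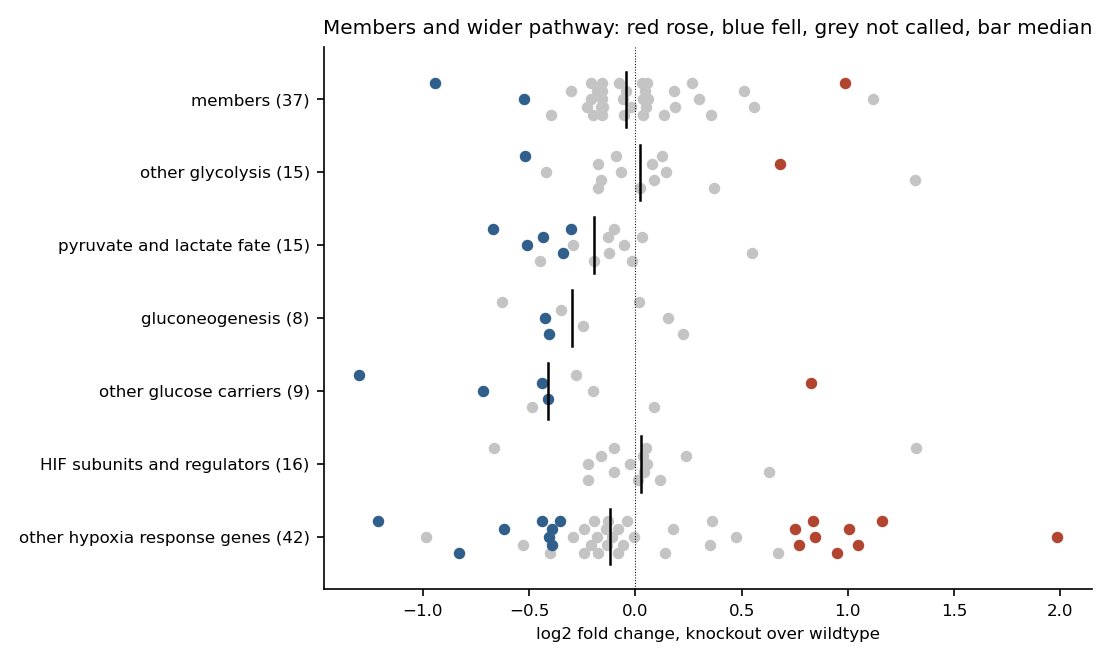
Log2 fold change of the tested members and of the 6 wider lists, with the number tested in brackets; red rose, blue fell, grey did not pass the test, and the bar is the median. The members centre near 0, the list labelled other glucose carriers (Slc2a and Slc5a genes) has the lowest median, and the other hypoxia response genes hold points on both sides.

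Markers of several cell types moved with the groups, beside 6.23% of all tested genes rising and 5.7% falling. The sums of endothelial, urothelium, and papilla and inner medulla markers overlapped between the groups. Proximal tubule markers summed to 12670 to 19050 CPM across the libraries labelled knockout and 20510 to 23110 CPM in those labelled wildtype. Of these markers 3 of 12 fell, the carrier Slc5a2 among them. Those of the thick ascending limb summed to 5906 to 6662 against 9702 to 11950 CPM (7 of 8 fell). For the distal convoluted tubule the sum was 2411 to 2739 against 6158 to 6582 CPM (7 of 8 fell). Macrophage and dendritic cell markers summed to 654 to 1161 against 352 to 530 CPM (9 of 11 rose). Of this sum Cd74, which did not pass, held 319 to 606 against 149 to 302 CPM. Tubular injury markers summed to 3481 to 4213 against 2216 to 3058 CPM (6 of 8 rose). Most of this sum was Spp1, at 2963 to 3478 against 1679 to 2394 CPM. Principal cell markers summed to 1521 to 2387 against 997 to 1265 CPM (7 of 7 tested rose), intercalated cell markers to 1266 to 1534 against 681 to 796 (6 of 8 rose), fibroblast and pericyte markers to 721 to 995 against 480 to 619 (4 of 9 rose) and cell cycle markers to 23.5 to 52.7 against 6.63 to 13.5 (4 of 5 tested rose). Red cell markers summed to 263 to 449 against 483 to 945 CPM (1 of 6 fell). The 1 was Hba-a2, at 0 to 0.168 CPM against 15.8 to 65.5. Hba-a1, Hbb-bs, Hbb-bt, Alas2 and Slc4a1 did not pass, with log2 fold changes of -0.29, -1.16, -1.25, -1.07 and -0.20. Slc4a1 is also on the intercalated cell list. Endothelial markers, Flt1 included, ran from 530 to 604 against 596 to 776 CPM (2 of 8 fell). Papilla and inner medulla markers ran from 400 to 621 against 613 to 884 CPM (1 of 5 fell). Wnt7b was the 1, and Slc14a2, Aqp4, Crym and Slc5a3, with log2 fold changes of 0.36, -1.39, -0.15 and -0.64, did not pass. Immediate early genes summed to 148 to 218 against 104 to 131 CPM (4 of 8 rose). Urothelium markers ran from 39.8 to 51.9 against 28.2 to 43.8 CPM (1 of 5 rose). In whole kidneys fewer cells of a type and less RNA per cell cannot be told apart, and the part of these shifts in the values above was not tested. Adrenal markers stood at 238 CPM in knockout library 4 and 6.31 to 8.84 CPM in the others; the calls of Slc16a7, Eno2 and Aldoc were kept without that library.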

How the data were processed

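RNA from whole kidneys (8 libraries, 200 ng, 15 PCR cycles, a directional kit, per the labels' protocols) was counted per gene. The deposited values are raw read counts, made with STAR, HTSeq and edgeR on mouse build mm9, per the submitters' processing notes; for versions and annotation the sources used here say nothing. The deposited files are named as not stranded, so antisense overlaps cannot be separated. Gene counts were 13435113 to 17930347 per library, and 63.8% to 69.1% of records were assigned to a gene. Identifiers were matched to symbols for 32860 of 37583 rows.

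Genes passing filterByExpr (15228) were scaled by TMM and tested with edgeR 4.0.16 (R 4.3.3, quasi-likelihood, robust, no covariate), two-sided, Benjamini-Hochberg threshold 0.05. Log2 isoform ratios had a prior count of 0.5 and an exact two-sided permutation test over 70 assignments. Alternatives used limma 3.58.1 and DESeq2 1.42.0, other scalings and filters, a replicate block, a clock term and left-out libraries. Exon lengths and shared stretches came from GENCODE M21, and no coordinate was moved between builds. The fit was tested on simulated data, with 1 random draw: the share of false calls was above the nominal level of the threshold, and many genes given the smallest planted change were missed, so calls near the threshold are uncertain and a gene that did not pass may still differ. Libraries of a group were distinct (chi-square per degree of freedom 9.04 to 22.9). All members are named; of each wider list, called genes with the 8 smallest adjusted p, plus Vegfa, Hif3a and Hk3; 1 further gene is not reported here. Flt1 is named because it kept its call under the clock term, and was chosen after its values were seen. The members and lists were chosen with earlier results of these data known.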

Additional observations from a re-analysis of the deposited data

Results flagged for a closer look

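Of 190 groups of 4 values examined (members, isoform ratios, named pathway genes, marker sums and the clock score), 10 held a library set far from the other 3, as the gap to its neighbour divided by the group's range; chance gives about 1 in 20. Among members, Hk2 was highest in wildtype library 1 (9.64 CPM against 4.31 to 4.91 in the other 3; gap 0.887 of the range) and Pfkfb4 was lowest there (6.63 against 9.94 to 10.5; 0.856). Pgk1 was lowest in knockout library 1 (22.7 against 27.2 to 27.7 CPM; 0.894), as was Adm (7.25 against 9.78 to 10.1; 0.879). The log2 ratio of Hk1 to Hk2 was lowest in wildtype library 1 (4.67 against 5.79 to 6.01; 0.837) and that of Egln1 to Egln3 was highest there (3.47 against 3.13 to 3.16; 0.912).

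Among marker sums, macrophage and dendritic cell markers were highest in knockout library 1 (1161 against 654 to 737 CPM; 0.835), as were cell cycle markers (52.7 against 23.5 to 25.2; 0.940). Red cell markers were highest in wildtype library 1 (945 against 483 to 510; 0.941), and adrenal markers in knockout library 4 (238 against 7.72 to 8.84; 0.995).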

How the results depend on the processing

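Over 18 alternatives, Slc16a7 kept its call in 18, Eno2 in 17 and Aldoc in 9. Members rising were 1 and falling 2, beside 11.9% of all genes called. With library totals only, which moved the median of all genes to 0.106, they were 2 and 1 (14.2% of all genes called). With no filter 2 rose (7.14% of all genes). DESeq2 called 5 members, 2 of them rising (15.9% of all genes). With the replicate block or without knockout libraries 1 and 4, 1 member fell (7.18% and 5.82% of all genes). The wider lists had 11 rising and 20 falling; 12 fell with library totals only, 12 with the replicate block, 10 without knockout libraries 1 and 4, and with the clock term 4 rose and 4 fell. All genes called were 1817, and 1094 with the replicate block, 758 with the clock term and 912 without knockout libraries 1 and 4. The replicate block rests on a shared number only: the deviations of same-numbered libraries correlated at -0.215, -0.21, -0.053 and 0.157 (Aldoc adjusted p = 0.0813 with the block), and 1 of the 4 libraries labelled knockout correlated best with its own number. Leaving out single libraries gave 1 to 2 members rising, 1 to 2 members falling, 7 to 12 wider-list genes rising, 12 to 21 wider-list genes falling, 1076 to 1940 genes called in all.

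Some differences changed sign; except for Slc16a1 with the clock term, these genes passed the threshold under neither setting. The log2 fold changes were then with library totals only Hk1 0.062, Tpi1 0.026, Eno1 0.051, Ldha 0.082 and Arnt 0.045, with upper quartile factors Ldha 0.005, with the replicate block Egln3 -0.048, with the clock term Slc2a3 0.027, Hk1 0.055, Gpi1 -0.038, Slc16a1 -0.822, Arnt 0.031, Vhl -0.065, Adm -0.214, Ankrd37 -0.058, Ndrg1 -0.432 and Hif3a -0.729, without knockout libraries 1 and 4 Ldha 0.049, Slc16a3 -0.396 and Egln3 -0.228, with limma voom Egln3 -0.037. Over single left-out libraries the ranges were Ankrd37 -0.091 to 0.263, Car9 -0.472 to 0.105, Egln3 -0.328 to 0.202, Eno1 -0.112 to 0.028, Hif1a -0.043 to 0.075, Hif3a -0.014 to 0.895, Hk1 -0.099 to 0.006, Ldha -0.064 to 0.026, Pfkp -0.02 to 0.153, Slc2a3 -0.282 to 0.001 and ratio Egln1 to Egln3 -0.263 to 0.201. The cause was not tested. Depth limits Epo, Slc16a3, Slc2a3 and Ankrd37.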
